A study of Homo sapiens with 4 samples.

Results

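DNA replication and S phase genes were followed as a set of 51 named genes, which were looked up by symbol in the gene lists of both single-cell libraries. All 51 had a row, among 33540 rows for Ishikawa and 33538 for T-47D. Ishikawa is a line from an endometrial adenocarcinoma, and T-47D is a line from a ductal carcinoma of the breast. Both respond to estrogens, and both were kept in hormone-depleted medium before treatment. Cells then received 10 nM 17β-estradiol (E2) for 2, 4 or 8 h, or the DMSO vehicle, which is the 0-h control. The time points of a line were tagged with MULTI-seq barcodes, mixed and sequenced as 1 library, with 1 culture per line and time. No replicate exists at any time, so no p-value is given, and the difference between cultures cannot be told apart from the effect of E2.

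Before a cell copies its DNA, the origin recognition machinery, CDC6 and CDT1 load the MCM2-7 helicase onto origins in G1, a step called licensing. At the start of S phase the helicase is activated by CDC45, the GINS complex and MCM10, after which primase, the polymerases and the PCNA clamp copy the strands while ribonucleotide reductase and thymidylate synthase supply nucleotides. Most of these genes are targets of the E2F transcription factors and are transcribed from late G1 into S phase, and estrogens are known as drivers of the G1 to S transition in breast cancer cells.

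After filtering, the pools held 776, 1480, 892 and 1465 Ishikawa cells and 1525, 1207, 1341 and 553 T-47D cells at 0, 2, 4 and 8 h. Their summed counts of unique molecular identifiers (UMIs, each standing for 1 captured RNA molecule) ranged from 12927799 for T-47D at 8 h to 33175309 for T-47D at 0 h. Of the cells that the deposited tag calls give a time, 38.2%, 55.8%, 52.4% and 54.4% passed the filter in Ishikawa. All did in T-47D, where the calls hold no cell outside the limits. Cell quality before the filter can therefore not be compared between the lines. Before the filter the Ishikawa control was shallower, with median UMIs of 10483.5, 16193, 18148 and 17260 per called cell at 0, 2, 4 and 8 h. Its median mitochondrial share was higher, at 7.29% against 4.95%, 4.66% and 4.63%. Kept Ishikawa cells had medians of 19121.5, 19616.5, 21435.5 and 20860 UMIs. Kept T-47D cells had medians of 20677, 20840, 21123 and 22576 UMIs. The endometrial epithelial markers PAX8, SOX17 and EMX2 had means of 109, 53.8 and 111 CPM (UMIs of a gene per 1000000 UMIs of its pool) in Ishikawa and no UMI in T-47D, while the luminal breast marker GATA3 had a mean of 485 CPM in T-47D and 0.00837 CPM in Ishikawa. The leukocyte gene PTPRC was at 0.101 CPM or less in all 8 pools. The matrices shared 80 cell barcodes, of which 5 were among the kept cells of both lines. An Ishikawa-specific GFP reporter row took 3.17% to 4.67% of the Ishikawa pools.

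Levels are given as CPM and changes as log2 of the ratio of CPM + 1 to that at 0 h. The 95% counting intervals beside them are exact, belong to the ratio of the counts with nothing added, and cover counting error only. They leave out the spread between cultures and, by taking each UMI as independent, the spread between cells. Across cells brought to 1 depth, UMIs of the set had a variance over the mean of 30.3 in T-47D and 12.6 in Ishikawa at 0 h. The intervals are therefore too narrow for the sampling of cells. A minimum of 10 CPM, averaged over the 4 time points of a line, was passed by 47 of the 51 genes in Ishikawa and by 36 in T-47D, and by 35 in both. In Ishikawa, GINS3, POLE, WDR76 and E2F8 fell under it. In T-47D the 15 under it were MCM2, CDC45, GINS3, GINS4, POLD1, POLE, POLE2, DSCC1, CHAF1B, UHRF1, EXO1, RAD51AP1, BLM, BRIP1 and E2F8.

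In T-47D the replication genes were higher after E2, with the largest part of the difference appearing between 4 and 8 h. All 51 genes together made up 1182 CPM at 0 h, 1257 CPM at 2 h, 1370 CPM at 4 h and 1676 CPM at 8 h. The log2 change of this sum was 0.09 at 2 h (counting interval 0.07 to 0.11), 0.21 at 4 h (0.19 to 0.23) and 0.50 at 8 h (0.48 to 0.53), or 1.42-fold at 8 h. Each pool lay above the one before it. No small group of genes carried the sum, since GINS2, which contributed most of the difference at 8 h, gave 10.3% of it, ATAD2 gave 8.2% and HELLS 6.39%.

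Gene by gene, 15 of the 36 T-47D genes past the minimum were more than 1.5-fold higher at 8 h and 0 were more than 1.5-fold lower. Among all 7440 T-47D genes past the same minimum, 2.34% were that much higher and 0.726% that much lower. The minimum favours genes that become high, as DTL did with 9.46 CPM at 0 h, and with no minimum 21 of the 51 were past 1.5-fold higher at any time, beside 2.35% of the 21079 genes with a UMI. The same 15 and 0 were past 1.5-fold when any time was taken, beside 2.67% and 0.981% of all genes. At a limit of 25% higher the count was 28 and at 2-fold it was 2, beside 8.53% and 0.927% of all genes. At 2 and 4 h no member passed 1.5-fold in either direction, against 1.22% and 1.33% of all genes higher and 0.417% and 0.363% lower. The median of the 36 changes was 0.08 at 2 h, 0.22 at 4 h and 0.48 at 8 h, whereas the median of all genes was 0.01, -0.01 and 0.01. At 8 h, 35 of the 36 changes were above 0, with UBR7 the exception, beside 3859 of all 7440 genes.

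Counting intervals, which leave out the spread between cells, were also taken by time. At 2 h, 12 of the 36 intervals lay above no change and 0 below, at 4 h 25 and 0, and at 8 h 34 and 0. The shares of all genes with intervals above were 16.8%, 18.3% and 20.8%, and below 13.5%, 20.1% and 17.8%. From 2 to 4 h, 14 intervals lay above and 1 below, while 10.4% and 14.3% of all genes did. From 4 to 8 h, 29 lay above and 0 below, beside 13.1% and 8.88% of all genes. These counts rest on the total UMIs of a pool as well as on the size of a change. The T-47D pool at 8 h had the fewest UMIs, though its cells had the highest median of the line.

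In Ishikawa the same genes differed little between the pools. The sum of all 51 was 2742 CPM at 0 h, 2647 CPM at 2 h, 2648.5 CPM at 4 h and 2686 CPM at 8 h. Its log2 change was -0.05, -0.05 and -0.03, and the interval at 8 h ran from -0.05 to -0.01. With TMM or median-of-ratios factors in place of the totals, the Ishikawa interval included 0 at each time. None of the 47 genes past the minimum reached 1.5-fold at any time, while 1.15% of 7885 genes did so higher and 1.29% lower. By time the shares of all genes were 0.786%, 0.634% and 0.812% higher and 0.659%, 0.621% and 0.469% lower at 2, 4 and 8 h. At the limit for a ratio of 25%, RFC4 was the 1 gene that was lower, beside 8.13% of all genes. At 8 h, 3 of the 47 intervals lay above no change and 8 below, beside 19.7% and 17.7% of all genes. At 2 h these counts were 1 and 8, beside 13.2% and 16.8%, and at 4 h 3 and 9, beside 14.7% and 16.2%.

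**Figure D1:**
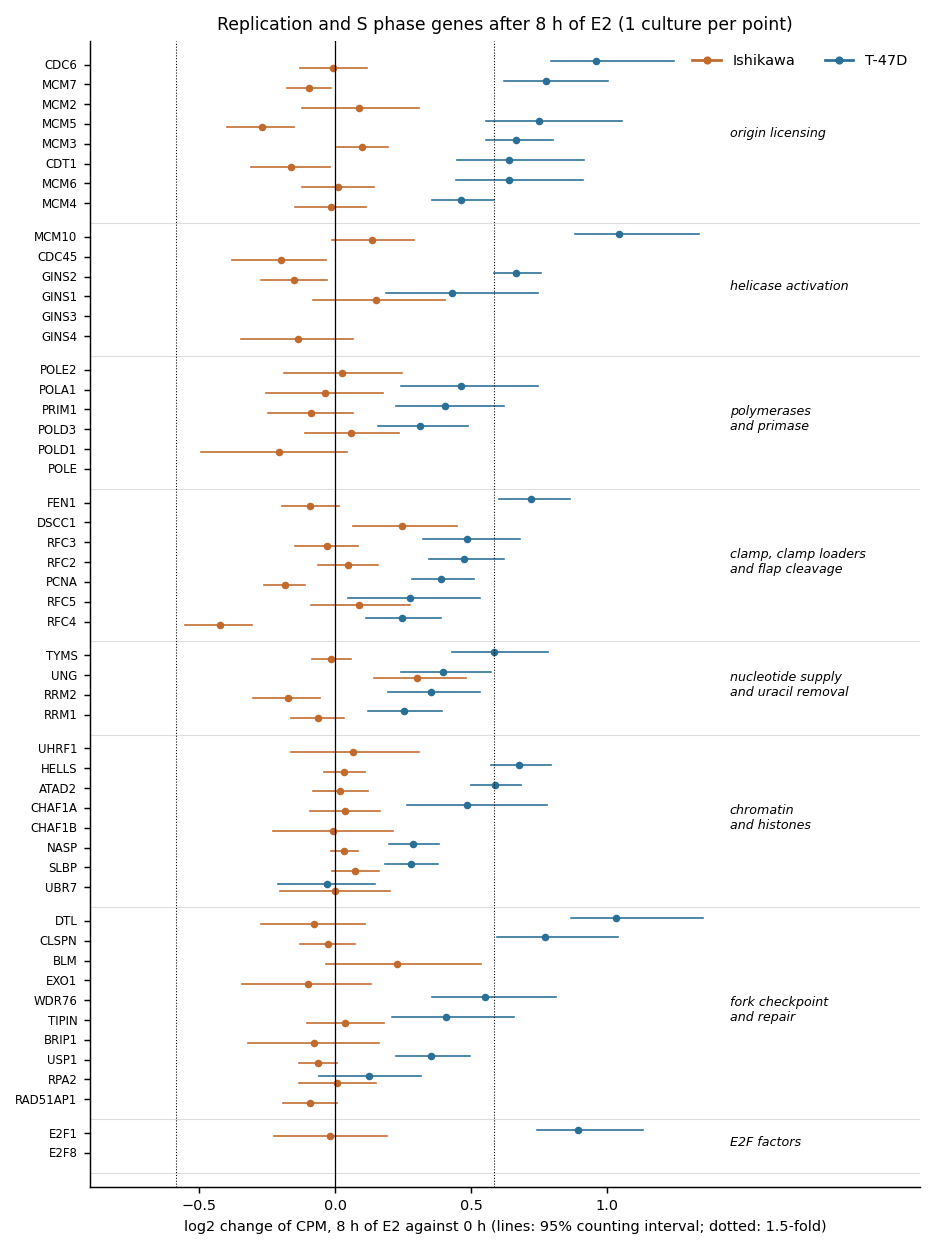
Log2 change of CPM at 8 h of E2 against 0 h for each of the 51 genes past 10 CPM in the line, grouped by role, with Ishikawa in orange and T-47D in blue. Lines are 95% counting intervals and the dotted lines mark 1.5-fold, which 15 T-47D genes and 0 Ishikawa genes passed.

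The starting levels of the lines differed. Before E2, 30 of the 35 genes past the minimum in both were lower in T-47D, with a median log2 difference of -1.06. Among all 6404 genes past the minimum in both lines, 44.8% were higher and 55.2% lower in T-47D and the median was -0.11. MCM7, a helicase subunit, had 126 CPM in Ishikawa and 16.9 CPM in T-47D, and TYMS, which makes thymidylate, had 151 and 21.6 CPM. GINS2, MCM4, ATAD2, POLD3 and UBR7 were the 5 that were higher in T-47D, GINS2 with 86 CPM against 56.3 CPM. In pooled CPM, fewer cells with a gene and less RNA of it per cell cannot be told apart, and the counts per cell further on bear on this.

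At 8 h the change was higher in T-47D for 34 of the 35 shared genes, beside 52.6% of all 6404 genes. At 2 and 4 h it was higher for 28 and 32, beside 56.3% and 54.2%. Counting intervals of the lines were apart, with T-47D above, for 8 of the 35 at 2 h, 19 at 4 h and 29 at 8 h, and none was apart with T-47D below. Among all genes, 9.24%, 8.46% and 9.68% were apart in the first direction and 6.34%, 7% and 7.37% in the second. The 6 whose intervals overlapped at 8 h were RFC5, RPA2, GINS1, UNG, POLD3 and UBR7. Intervals lay below no change in Ishikawa and above it in T-47D for 2 of the 35 at 2 h, 6 at 4 h and 7 at 8 h, beside 2.47%, 1.56% and 2.39% of all genes. With either set of other scaling factors these counts were 2, 2 and 5, and no share of all genes was taken with them. Lines were grown, tagged and sequenced separately, so line and library cannot be told apart here.

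Octamers of the E2F type were more frequent in the promoters of the set than in promoters as a whole. RefSeq promoters on GRCh38.p14 (250 bases before to 50 after the start) were found for 42 of the 51 genes. The octamers TTTCGCGC, TTTGGCGC, TTTCCCGC and TTTGCCGC, sought on both strands, stood in 22 of the 42 (52.4%) and in 3.33% of 27305 promoters of the same length. Among promoters with 20 or more CG dinucleotides the shares were 52.5% of 40 and 5.81% of 11251. CCAAT, the letters of the NF-Y box, stood in 69.0% of the 42 and 35.7% of all, and the GC box GGGCGG in 78.6% and 44.6%. With 20 or more CG dinucleotides, the GC box stood in 77.5% and 81.9%, so that its share was no higher in the set. The cell cycle homology letters TTTGAA or TTCGAA, known from G2/M promoters, stood in 7.14% and 16.6%, or 7.5% and 7.59% with 20 or more CG. The full palindromic estrogen response element was in 0 of the 42 and in 0.0659% of all promoters. A CCAAT can lie within a few bases of an E2F octamer, and matches were counted separately. The 4 genes below had the highest T-47D changes at 8 h among those with an E2F match, and UBR7 had the lowest change of the 36. MCM10, whose change was higher than that of any of them, had no match. Each is printed 5′ to 3′ on the strand of the gene, with E2F octamers on either strand in capitals.
DTL (chr1:212035498-212035797, plus strand): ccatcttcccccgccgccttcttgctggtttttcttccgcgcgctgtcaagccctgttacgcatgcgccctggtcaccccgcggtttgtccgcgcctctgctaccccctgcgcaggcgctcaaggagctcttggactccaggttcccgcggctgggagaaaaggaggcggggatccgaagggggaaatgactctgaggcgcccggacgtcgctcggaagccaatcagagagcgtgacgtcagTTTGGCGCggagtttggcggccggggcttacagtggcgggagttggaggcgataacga
CDC6 (chr17:40287629-40287928, plus strand): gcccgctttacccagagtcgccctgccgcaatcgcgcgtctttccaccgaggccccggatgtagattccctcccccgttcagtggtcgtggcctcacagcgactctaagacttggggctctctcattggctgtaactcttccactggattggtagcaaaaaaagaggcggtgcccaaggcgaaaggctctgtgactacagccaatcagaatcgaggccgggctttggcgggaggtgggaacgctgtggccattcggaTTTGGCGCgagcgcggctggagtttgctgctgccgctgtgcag
E2F1 (chr20:33686336-33686635, minus strand): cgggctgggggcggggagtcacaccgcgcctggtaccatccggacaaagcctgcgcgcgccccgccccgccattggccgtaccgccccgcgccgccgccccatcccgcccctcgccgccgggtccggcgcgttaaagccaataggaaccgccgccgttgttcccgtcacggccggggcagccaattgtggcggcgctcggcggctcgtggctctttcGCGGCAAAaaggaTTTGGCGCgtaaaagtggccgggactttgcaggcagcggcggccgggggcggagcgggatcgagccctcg
MCM7 (chr7:100101348-100101647, minus strand): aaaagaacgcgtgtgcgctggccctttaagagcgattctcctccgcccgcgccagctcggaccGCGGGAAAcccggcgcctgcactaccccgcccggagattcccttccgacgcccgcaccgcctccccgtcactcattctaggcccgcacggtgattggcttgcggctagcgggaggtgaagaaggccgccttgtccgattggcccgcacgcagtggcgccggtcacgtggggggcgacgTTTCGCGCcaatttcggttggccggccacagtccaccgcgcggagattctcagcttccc
UBR7 (chr14:93207006-93207305, plus strand): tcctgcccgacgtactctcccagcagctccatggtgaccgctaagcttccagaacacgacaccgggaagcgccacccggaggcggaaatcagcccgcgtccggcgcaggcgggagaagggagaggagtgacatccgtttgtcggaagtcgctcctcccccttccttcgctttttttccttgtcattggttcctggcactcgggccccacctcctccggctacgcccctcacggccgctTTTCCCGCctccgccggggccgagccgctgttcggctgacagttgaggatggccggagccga

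The match began 8 bases before the start in DTL, at base 8 after it in CDC6, 33 and 20 bases before it in E2F1, and 187 and 9 bases before it in MCM7. UBR7 also had a match, which began 12 bases before its start. Over the T-47D genes past the minimum, the median change at 8 h was 0.65 for the 16 with a match and 0.37 for the 14 without. A match describes letters in this window and not binding, and the split was not tested.

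The licensing genes were the role with the most T-47D genes past 1.5-fold at 8 h, namely 6 of 7. Beside this and the role counts below stand the 2.34% of all T-47D genes past 1.5-fold higher. The licensing sum went from 165 CPM at 0 h to 262 CPM at 8 h, 1.59-fold. CDC6, the loader that brings the helicase to the origin, had 11.03, 13.0, 15.9 and 22.4 CPM in the 4 T-47D pools and a log2 change of 0.96 at 8 h (interval 0.79 to 1.245). In Ishikawa it had 52.3, 49.5, 54.5 and 52.0 CPM. CDC6 was thus higher at each T-47D time point than at the one before and ended below its Ishikawa level. CDT1, its partner in loading, had 12.1, 13.2, 18.3 and 19.3 CPM in T-47D, so that most of its difference was present at 4 h, where the change was 0.56. Ishikawa had 40.1, 35.3, 37.5 and 35.8 CPM of CDT1, with a change of -0.16 at 8 h.

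The helicase subunits were all higher at 8 h in T-47D. MCM7 had 16.9, 21.0, 23.4 and 29.6 CPM, a change of 0.78 at 8 h, and its change of 0.30 at 2 h was among the 12 with an interval off no change. MCM5 had 10.0, 10.5, 11.9 and 17.5 CPM, a change of 0.75 at 8 h. In Ishikawa MCM5 had 55.3, 51.1, 50.8 and 45.7 CPM, a change of -0.27 (interval -0.40 to -0.15). Only RFC4 was lower among the 47, and the MCM5 intervals lay on opposite sides of no change in the lines. MCM3 went from 42.0 to 67.2 CPM and MCM6 from 12.03 to 19.3 CPM between 0 and 8 h in T-47D, changes of 0.66 and 0.64. MCM4 was the licensing gene past the minimum that stayed under 1.5-fold, at 54.0 and 74.8 CPM and 0.46. MCM2 lay under the T-47D minimum, with 6.93, 7.28, 7.96 and 12.4 CPM, and its change of 0.75 at 8 h rests on 230 and 160 UMIs.

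Among the activators of the helicase, MCM10 had the highest T-47D change of the whole set. It had 10.6, 11.5, 16.1 and 23.0 CPM, a change of 1.04 at 8 h (interval 0.88 to 1.34). Ishikawa had 34.2, 33.9, 38.7 and 37.7 CPM of MCM10. GINS2, part of the ring that joins CDC45 to the helicase, had 86.0, 89.9, 105 and 137 CPM in T-47D, a change of 0.66, and 56.3, 56.1, 57.6 and 50.7 CPM in Ishikawa. Its T-47D level exceeded the Ishikawa level at every time. CDC45, the helicase cofactor, had 28.3, 23.9, 25.7 and 24.5 CPM in Ishikawa, a change of -0.20, and 3.29 to 6.11 CPM in T-47D.

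Polymerases and primase showed smaller differences. Their T-47D sum was 75.4 CPM at 0 h and 98.8 CPM at 8 h, 1.31-fold, and 0 of 3 genes past the minimum reached 1.5-fold. POLA1, the catalytic subunit that extends primers, had 11.2, 13.5, 12.7 and 15.9 CPM in T-47D, a change of 0.46. POLD1, the catalytic subunit of polymerase delta, had the largest change of the role in Ishikawa, -0.21, at 12.2, 11.3, 11.3 and 10.4 CPM, with an interval of -0.49 to 0.04 that includes 0.

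For the clamp, its loaders and flap cleavage, FEN1 stood apart from the rest in T-47D. FEN1, the nuclease that trims Okazaki fragment flaps, had 37.1, 43.5, 46.9 and 61.7 CPM, a change of 0.72, and was the 1 gene of 6 past 1.5-fold. PCNA, the sliding clamp, had 55.1, 58.4, 60.2 and 72.5 CPM in T-47D, a change of 0.39 (interval 0.28 to 0.51). In Ishikawa PCNA was lower at 8 h, with 142, 142, 131 and 125 CPM and a change of -0.18 (interval -0.26 to -0.11). RFC4, a clamp loader subunit, had the lowest Ishikawa change of any gene, -0.42 (interval -0.55 to -0.31), at 59.3, 47.8, 47.6 and 44.0 CPM. Its T-47D values were 41.7, 39.5, 41.1 and 49.6 CPM, so that in T-47D just the 8-h pool was above the control, by 0.25. DSCC1, which loads PCNA in sister chromatid cohesion, had 20.8, 21.6, 24.0 and 24.8 CPM in Ishikawa, a change of 0.25 with an interval of 0.07 to 0.45.

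The nucleotide genes gave lower T-47D changes than licensing, with a sum of 115 CPM at 0 h and 151 CPM at 8 h, 1.30-fold. TYMS had 21.6, 24.8, 28.0 and 32.9 CPM, a change of 0.585 that lies just at the 1.5-fold line. Its Ishikawa values of 151, 147, 148 and 149.6 CPM gave a change of -0.01 with an interval that includes 0. RRM2, the S phase subunit of ribonucleotide reductase, had 25.98, 31.2, 27.5 and 33.4 CPM in T-47D, with the 4-h pool below the 2-h pool. Against the control the 8-h pool differed by 0.35 there. Ishikawa gave -0.17 (interval -0.30 to -0.05) for RRM2, at 55.1, 56.2, 48.2 and 48.7 CPM. UNG, which removes uracil from DNA, had the highest Ishikawa change, 0.30 (interval 0.14 to 0.48), at 26.6, 28.3, 29.4 and 33.0 CPM, and its T-47D change was 0.395, from 26.5, 26.4, 28.7 and 35.1 CPM.

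Among chromatin genes HELLS and ATAD2 were past 1.5-fold in T-47D, 2 of 6. HELLS, a remodeller needed for DNA methylation, had 52.0, 57.0, 64.4 and 83.5 CPM, a change of 0.67. ATAD2, a bromodomain ATPase, had 79.8, 87.0, 99.7 and 120 CPM, a change of 0.59 that lies just past the 1.5-fold line. UHRF1, which carries DNA methylation across replication, was under the minimum in T-47D with 5.46, 6.97, 8.74 and 9.9 CPM, and had 14.4, 16.1, 16.0 and 15.2 CPM in Ishikawa. SLBP, which binds histone messenger RNA, had the largest Ishikawa change of the role, 0.07, at 104 to 112 CPM. UBR7, a ubiquitin ligase for histones, had 28.3, 27.6, 26.9 and 27.7 CPM in T-47D, a change of -0.03 with an interval of -0.21 to 0.15.

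The fork genes differed widely among themselves. DTL, which directs the destruction of CDT1 during S phase, had 9.46, 9.27, 13.9 and 20.4 CPM in T-47D, a change of -0.03 at 2 h, 0.51 at 4 h and 1.03 at 8 h. CLSPN, the checkpoint mediator claspin, had 12.4, 16.1, 16.7 and 22.0 CPM, a change of 0.77, of which 0.35 was present at 2 h. The DTL difference appeared after 2 h, while part of that of CLSPN was there by then. RPA2, a subunit of the protein that coats single-stranded DNA, had 23.5, 21.6, 23.1 and 25.8 CPM and a change of 0.12 whose interval included 0. In Ishikawa DTL had 22.5, 18.9, 19.9 and 21.2 CPM, and BLM, a helicase, had 9.67, 10.6, 9.24 and 11.5 CPM. TIPIN, a fork protection factor, had a T-47D change of 0.41 and an Ishikawa change of 0.04.

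E2F1, the factor that activates many of the other genes, had 15.2, 16.6, 18.7 and 29.1 CPM in T-47D, a change of 0.12 at 2 h, 0.28 at 4 h and 0.89 at 8 h (interval 0.74 to 1.13). Its largest step came after 4 h, later than that of CDT1. Ishikawa had 19.1, 18.1, 18.5 and 18.8 CPM, so the T-47D pool at 8 h was the highest of all 8. E2F8, a repressor of the family, was under the minimum in both lines.

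**Figure D2:**
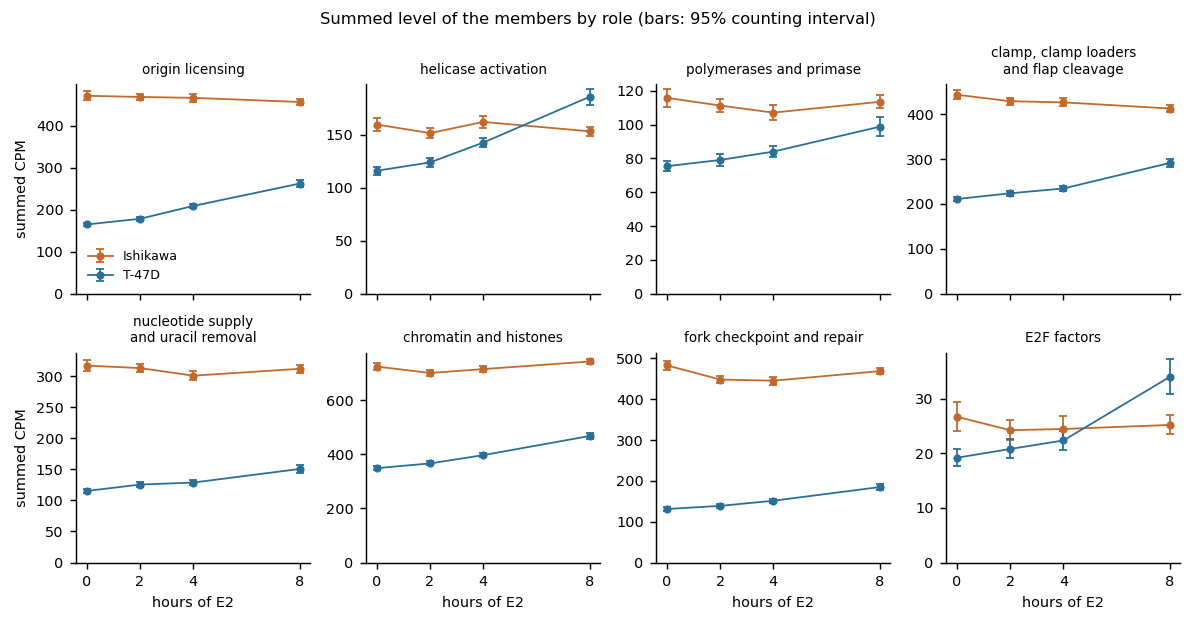
Summed CPM of the genes of each role against hours of E2, with Ishikawa in orange, T-47D in blue and 95% counting intervals as bars. The T-47D sums were higher at 8 h in every panel, from 165 to 262 CPM for licensing for example, while the Ishikawa sums stayed within 0.931-fold and 1.03-fold of the control at 8 h.

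Genes of the same pathways outside the set were also higher in T-47D, by less at the median. Of 35 such genes past the minimum in T-47D, 4 were past 1.5-fold higher at 8 h and 0 lower, against the same 2.34% and 0.726% of all genes, and their median change was 0.29. The 4 were FAM111B with 35.3 and 63.8 CPM at 0 and 8 h and a change of 0.84, ORC6 with 10.0 and 17.3 CPM and 0.74, RBL1 with 8.95 and 14.3 CPM and 0.62, and CCNE2 with 12.9 and 20.3 CPM and 0.62. FAM111B is a protease linked to replication, ORC6 is an origin recognition subunit, RBL1 is a pocket protein that binds E2Fs, and CCNE2 is a cyclin of the G1 to S transition. POLD4 was the lowest, at -0.08. In Ishikawa 0 of 48 reached 1.5-fold at 8 h, beside 0.812% of all genes higher and 0.469% lower. DCTPP1, which clears unwanted nucleotides, was the highest at 0.33 and PRIM2, a primase subunit, the lowest at -0.32. A list of 54 G2/M genes summed to 2831 CPM at 0 h and 3128 CPM at 8 h in T-47D, a log2 change of 0.14, and to 4343 and 3773 CPM in Ishikawa, a change of -0.20.

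Counts per cell showed how the UMIs of the set were spread over cells. To remove differences in depth, each cell was thinned at random to 12539 UMIs, which left out 69, 60, 43 and 12 T-47D cells and 100, 175, 57 and 129 Ishikawa cells at 0, 2, 4 and 8 h. The share of T-47D cells with 10 or more UMIs of the set was 39.4% (exact 95% interval 36.8% to 41.9%) at 0 h, 37.7% at 2 h, 42.4% at 4 h and 47.3% (43.0% to 51.6%) at 8 h. Without thinning it was 75.6%, 75.5%, 77.0% and 82.8%. The limit of 10 ran through the bulk of T-47D cells, and 329 of 1456 cells at 0 h lay within 1 UMI of it. In Ishikawa 94.1%, 95.5%, 95.8% and 95.5% of cells reached 10, and 97.04%, 96.8%, 98.4% and 96.7% without thinning. Neither library holds a cell type that should lack these genes, so no background share is available.

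The middle of the T-47D distribution was nearly the same at each time and its upper end was higher at 4 and 8 h. The median cell had 8 UMIs of the set at 0, 2 and 4 h and 9 at 8 h. The upper quartile was 11, 11, 13 and 18 UMIs, and the 90th percentile 24, 23.4, 36 and 61 UMIs. Ishikawa cells had a median of 28, 28, 27 and 27 UMIs and a 90th percentile of 64, 61, 60 and 61 UMIs. The T-47D distribution was therefore low with a long tail, and the Ishikawa distribution broad, as the variance over the mean of 30.3 and 12.6 at 0 h also shows.

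**Figure D3:**
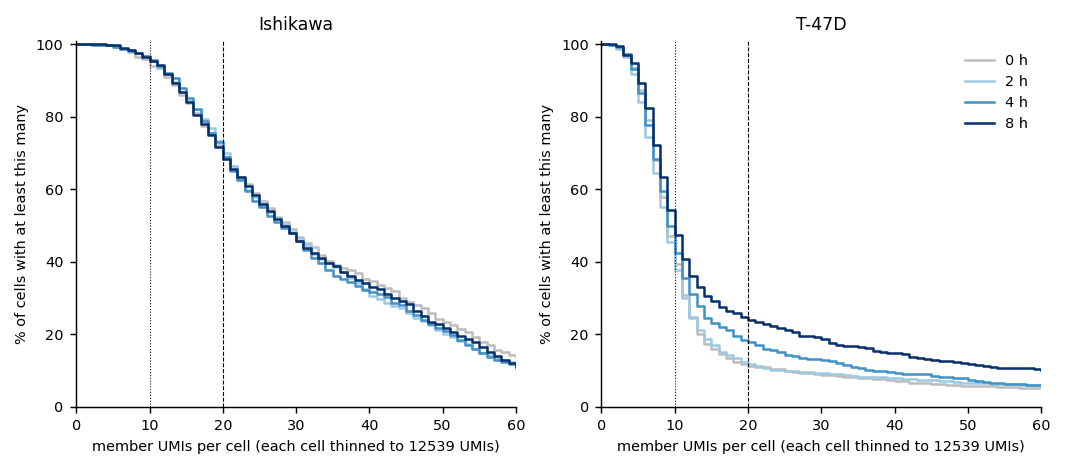
Share of cells (y axis, %) with at least the number of UMIs of the set on the x axis, after thinning each cell to 12539 UMIs, with a line per time point from grey (0 h) to dark blue (8 h). Dotted and dashed lines mark 10 and 20 UMIs, and at 20 the T-47D share goes from 11.1% to 24.0% while the Ishikawa lines overlie each other.

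A limit of 20 UMIs, chosen after the distributions were seen, separated the T-47D tail from the rest, with 13 of 1456 cells at 0 h within 1 UMI of it. It marks a range of values and not a cell type, and cells in it were also sequenced deeper, with a median of 25338 against 20715 UMIs before thinning at 0 h in T-47D. In T-47D 11.1% of cells (9.49% to 12.8%) were in it at 0 h, 11.7% at 2 h, 17.7% (15.7% to 19.9%) at 4 h and 24.0% (20.5% to 27.9%) at 8 h. Without thinning the shares were 25.2%, 25.7%, 29.2% and 38.7%. In Ishikawa 68.9%, 70.1%, 69.0% and 68.3% of cells were in it, and 80.2%, 82.9%, 86.4% and 83.0% without thinning. After thinning, the intervals of the T-47D shares at 4 and 8 h lay above that at 0 h, and those of the Ishikawa shares all overlapped. Without thinning, the T-47D intervals at 0 h (23.0% to 27.4%) and 4 h (26.8% to 31.7%) overlapped, and the Ishikawa interval at 4 h (84.0% to 88.6%) lay above that at 0 h (77.2% to 82.9%).

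The level within each range is given as a description, since the ranges are set on the same UMIs and the lower range cannot exceed 19 UMIs per cell. T-47D cells under 20 had 644, 625, 639 and 648 CPM of the set in the 4 pools. Those with 20 or more had 4954, 5375, 4226 and 4495 CPM, and held 48.9%, 53.2%, 58.7% and 68.7% of all UMIs of the set. Each gene was also compared between 0 and 8 h after sorting cells by the other genes alone. The median change of the 36 genes was then -0.11 in cells with 20 or more and 0.06 in cells under 20, beside 0.48 in whole pools. In the upper range 0 intervals lay above no change and 6 below, beside 8.02% and 7.86% of all genes. In the lower range 1 lay above, that of MCM3 with 22.0 and 27.4 CPM, and 0 below, beside 12.1% and 12.2%. The genes are correlated across cells, so this sorting is not independent of the gene compared. Fewer UMIs stand behind each of these values than behind the pools.

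MCM10, CDC6 and E2F1 are given as examples. In the upper range they lay closer to no change than the median gene at -0.11. There 9 of the 36 genes were above no change, and no such share was taken over all genes. Among cells with 20 or more UMIs of the other genes, MCM10 had 89.2 CPM at 0 h and 85.9 CPM at 8 h, and among the rest 0.739 and 0.968 CPM, from 12 and 5 UMIs. CDC6 had 77.8 and 77.9 CPM in the upper range and 2.22 and 2.13 CPM in the lower. E2F1 had 100.3 and 98.9 CPM in the upper range and 4.3 and 4.45 CPM in the lower. RRM2 had the lowest change within the upper range, with 173 and 100.2 CPM at 0 and 8 h, a change of -0.78 (interval -1.06 to -0.51). TYMS, RRM1, RFC4, ATAD2 and UBR7 were the other 5 with intervals below no change, between -0.32 and -0.68.

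**Figure D4:**
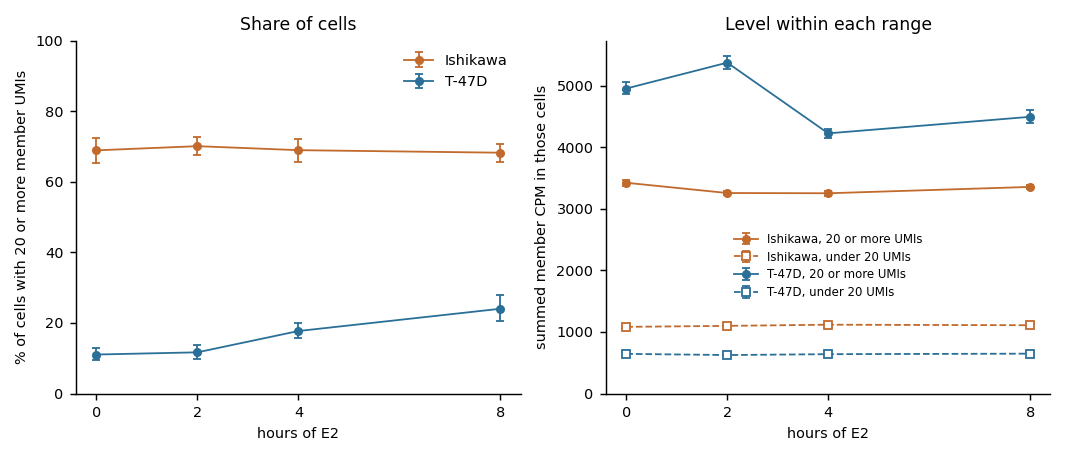
Left, share of thinned cells (%) with 20 or more UMIs of the set against hours of E2. Right, summed CPM of the set within cells of 20 or more UMIs (filled) and under 20 (open), with exact 95% intervals as bars in both panels. The T-47D share is 24.0% at 8 h, and the level under 20 UMIs, which the limit itself bounds, lies between 625 and 648 CPM.

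The genes differed in their fold between the 2 ranges of cells. In T-47D at 0 h the median gene was 8.48-fold higher in cells with 20 or more UMIs of the other genes than in the rest. All 36 were higher, which follows in part from sorting cells on genes correlated with the one compared. No fold over all genes was taken for these ranges. MCM10 was 121-fold, CLSPN 56-fold, DTL 54.8-fold, RRM2 36-fold and TYMS 35.7-fold higher, whereas UNG was 3-fold, RPA2 2.55-fold, UBR7 2.29-fold and TIPIN 2.22-fold higher. In Ishikawa the median was 3.08-fold, with EXO1, an exonuclease, highest at 18.3-fold and TIPIN lowest at 1.4-fold. Of the 4 lowest in T-47D, UNG, RPA2 and UBR7 were also among the 6 genes whose intervals of change at 8 h overlapped between the lines, and TIPIN was not. The others of the 6 were POLD3 at 3.59-fold, RFC5 at 4.15-fold and GINS1 at 8.35-fold. USP1 at 3.28-fold and NASP at 3.49-fold, the next lowest, had intervals apart. The limit of 4 was set after the values were seen, and a link was not tested.

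In T-47D cells of the upper range, the median was 65, 82.5, 42 and 45.5 UMIs of the G2/M list at 0, 2, 4 and 8 h, against 16 to 17 in the other cells. Of all T-47D cells, between 7.40% and 9.06% had 60 or more. With 60 UMIs of the G2/M list per thinned cell as a second limit, also chosen after seeing the data, cells with 20 or more UMIs of the set and under 60 of the G2/M list made up 5.08% (4.01% to 6.34%), 4.8%, 11.6% and 15.9% (12.9% to 19.3%) of T-47D cells at 0, 2, 4 and 8 h. Those over both limits made up 5.98% (4.81% to 7.32%), 6.89%, 6.16% and 8.13% (5.97% to 10.8%). At a G2/M limit of 50 the first share was 4.33% at 0 h and 12.9% at 8 h and the second 6.73% and 11.1%. At a limit of 80 the first was 6.25% and 17.6% and the second 4.81% and 6.47%. In Ishikawa the first share was 43.6%, 43.9%, 46.9% and 44.2% and the second 25.3%, 26.2%, 22.0% and 24.1%. No cell cycle phase was called from these counts.

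**Figure D5:**
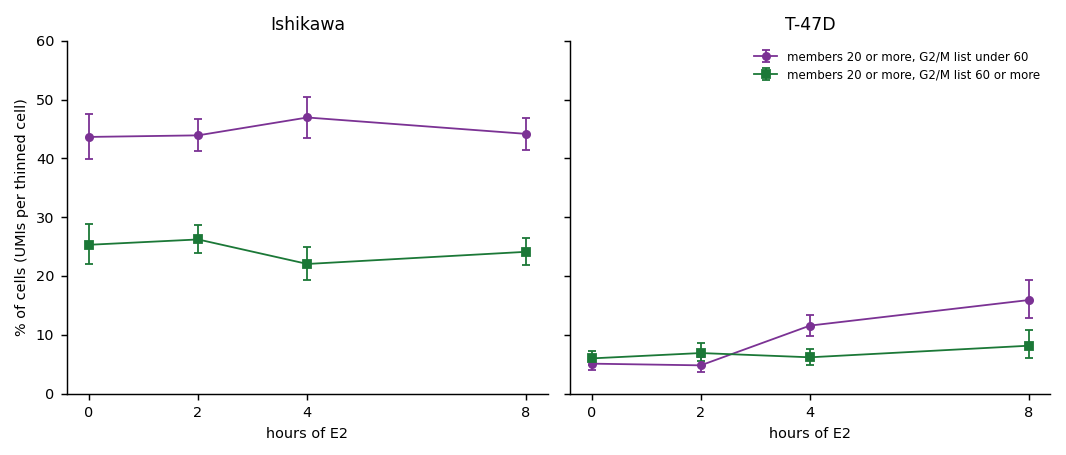
Share of thinned cells (%) with 20 or more UMIs of the set, split at 60 UMIs of the G2/M list, against hours of E2 for each line, with exact 95% intervals as bars. The T-47D share under 60 goes from 5.08% to 15.9%, and the share at 60 or more stays between 5.98% and 8.13%.

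Across cells the genes were mostly positively correlated in both lines. Spearman's rho over thinned cells had a median of 0.198 over 630 pairs of genes in 1456 T-47D cells at 0 h, and 0.228, 0.222 and 0.263 at 2, 4 and 8 h. In Ishikawa, where more genes pass the minimum, the medians over 1081 pairs were 0.131 in 676 cells at 0 h and 0.121, 0.12 and 0.128 later. The median over pairs of any genes past the minimum was 0.00816 in Ishikawa and 0.00269 in T-47D at 0 h. The order of the lines turned with the genes used, since for genes of at least 50 CPM the median at 0 h was 0.247 in Ishikawa and 0.227 in T-47D. Without thinning it was 0.248 and 0.265. These values describe cells of 1 culture that share depth, library and cell cycle, and low counts pull them towards 0. Pairs within a role had a median of 0.202 and pairs across roles 0.197 in T-47D at 0 h. MCM10 and CLSPN formed the closest T-47D pair at 0, 2 and 4 h, with 0.589 at 0 h, and CDC6 and E2F1 at 8 h with 0.665. In Ishikawa TYMS and RRM2 led at 0 h with 0.452.

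TYMS was the gene whose counts followed the sum of the others most closely in both lines at 0 h, with rho of 0.641 in Ishikawa and 0.406 in T-47D. This rho was higher in Ishikawa for 32 of the 35 shared genes, and no share over all genes was taken. Of the 35, 30 had a lower level in T-47D at 0 h, and the part of this in rho was not tested. The median over all pairs had the other order, with 0.131 in Ishikawa and 0.198 in T-47D. TIPIN followed the sum of the others least, with 0.14 and 0.0767. Outside the set, the genes with the highest rho to its sum at 0 h in Ishikawa were PCLAF, a PCNA-binding factor, with 0.633, DUT with 0.598, ORC6 with 0.582, ZWINT with 0.558 and GMNN, the licensing inhibitor geminin, with 0.521. In T-47D they were PCLAF with 0.409, FAM111B with 0.406, the proliferation marker MKI67 with 0.399, CENPU with 0.394 and CEP55 with 0.393. PCLAF led both lists. The sum of the set and that of the G2/M list had a rho of 0.408, 0.459, 0.523 and 0.586 in T-47D and 0.548, 0.484, 0.531 and 0.559 in Ishikawa. In Ishikawa the share of UMIs given to the set had a rho of -0.307, -0.343, -0.288 and -0.372 with the GFP share of the cell. Ishikawa cells under 20 UMIs of the set had a median GFP share of 1.67% at 0 h, and those with 20 or more 0.517%. Sums and medians were also taken with GFP left out of the totals and in cells under 1% GFP. The part of GFP in the values per cell was not tested.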

How the data were processed

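Per the submitters' processing notes, reads were processed with Cell Ranger 3.1.0 on hg38, and the authors deposited matrices of UMI counts per gene and cell, with no normalization. Cells were kept by the limits of the study's methods. UMIs per cell lay between 8500 and 35000 in Ishikawa and between 7500 and 40000 in T-47D, detected genes between 2700 and 6000 or 1500 and 6000, and the mitochondrial share below 7% or 20%. Cells were assigned to times by the deposited tag calls, cells called there as doublets were left out, and no other doublet caller was run. Summed counts per line and time were turned to CPM, and changes are log2((CPM + 1) / (CPM at 0 h + 1)). Intervals at the 95% level were exact Poisson for CPM, exact conditional binomial for ratios and Clopper-Pearson for shares. UMIs were drawn without replacement for thinning. With 1 culture per line and time, no test was run. The members and gene lists were chosen with earlier results of these data known. Named were a fixed group of members, in each role and line the member with the largest change at 8 h, in each line the 3 highest and 3 lowest, members past 1.5-fold, the members highest and lowest in correlation, the 5 most correlated genes outside the set, and, of the other pathway genes, those past 1.5-fold and the highest and lowest. UBR7, MCM4, GINS1 and others named for an interval or a share were chosen after their values were seen. Ratio intervals were tried on simulated Poisson pools, a model that the intervals assume and that leaves out the spread between cells. The trial therefore cannot show their coverage for the real pools. Its first coverage limit failed in a T-47D group of genes and was replaced after this was seen. Python 3.11.15, numpy 2.4.6, scipy 1.17.1, pandas 2.3.3, R 4.3.3, edgeR 4.0.16 and DESeq2 1.42.0 were used, the last 2 for scaling factors alone. Alternatives were other cell filters, scalings, pseudocounts, minimums and limits.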

Additional observations from a re-analysis of the deposited data

Results flagged for a closer look

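For the summed set at each time, the lines differed in direction, with the Ishikawa interval below no change and the T-47D interval above it. The same held for 2 of the 35 shared genes at 2 h, 6 at 4 h and 7 at 8 h. Among all 6404 genes past the minimum in both lines, the shares were 2.47%, 1.56% and 2.39%. None of these differences was tested, since each line and time has 1 culture, and the intervals leave out the spread between cells. The difference in log2 change, T-47D minus Ishikawa, of the summed set was 0.14 at 2 h, 0.26 at 4 h and 0.53 at 8 h. At 2 h it was 0.53 for CLSPN and 0.33 for ATAD2. At 4 h it was 0.37 for USP1, 0.55 for MCM7, 0.43 for ATAD2, 0.26 for RRM1, 0.48 for PRIM1 and 0.24 for PCNA. At 8 h it was 0.53 for RRM2, 0.67 for RFC4, 0.87 for MCM7, 0.81 for GINS2, 0.80 for CDT1, 0.57 for PCNA and 1.02 for MCM5. The opposite directions depended on the scaling, an alternative chosen for them after seeing the data. With TMM or median-of-ratios factors the Ishikawa interval of the summed set included 0 at all 3 times, so the sums no longer differed in direction in this sense. With either set of factors CLSPN and ATAD2 remained at 2 h, RRM1 and USP1 at 4 h, and GINS2, MCM5, PCNA, RFC4 and RRM2 at 8 h. No share of all genes was taken with these factors.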

How the results depend on the processing

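No paired analysis was possible because each line and time has 1 culture and the labels give no replicate numbers. No called direction reversed, and the cause of the differences below was not tested unless the setting itself gives it. The summed Ishikawa change was -0.013 with TMM, -0.016 with median-of-ratios factors and -0.073 without GFP at 2 h, -0.014 and -0.010 with the 2 factors at 4 h, and -0.0033 and -0.00075 with them at 8 h, where it was -0.0089 over every called cell and -0.053 with an upper limit of 1.5 times the median UMIs. The Ishikawa median gene was -0.013 with TMM and -0.016 with median-of-ratios factors at 2 h, and -0.0068 with the latter at 4 h. The upper limit gave T-47D sums of 0.048 at 2 h and 0.16 at 4 h. At a limit of 25% higher, 28 T-47D genes were higher, beside 8.53% of all genes, and at the same ratio 1 Ishikawa gene, RFC4, was lower, beside 8.13%. At 2-fold 2 T-47D genes were higher, beside 0.927%. From 0 to 8 h the share of cells differed by 1.92 points in T-47D at a limit of 5 UMIs, by 13.0 points at 20, and by -0.67 points in Ishikawa at 20. Median co-expression at 0 h was 0.248 without thinning, 0.247 for genes of at least 50 CPM and 0.201 by Pearson's r in Ishikawa, and 0.265, 0.227 and 0.368 in T-47D. Over every called Ishikawa cell, the change at 8 h was 0.12 for TYMS and -0.12 for BLM, each on the other side of 0. With a pseudocount of 5 CPM, MCM10 had 0.84, DTL 0.81 and CDC6 0.77 in T-47D.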
